A study of Mus musculus with 6 samples.

Results

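Respiratory complex I (NADH:ubiquinone oxidoreductase) was followed in RNA sequencing of isolated mouse pancreatic islets through its nuclear genes, taken as the rows of the deposited table whose symbol starts with Nduf, with symbols containing -ps left out. The rule found 48 of the table's 18437 genes. They comprised 36 subunits of the complex, 8 assembly factors (symbols starting with Ndufaf), Ndufa4 and its paralog Ndufa4l2, and the paralogs Ndufs6b and Ndufb4c. Ndufb1 and the mitochondrially encoded subunits were not analysed here. Islets of Sec16b-/- mice (knockout, 3 libraries) were compared with islets of Sec16b+/+ mice (wild type, 3 libraries). All mice were males aged 30 weeks. Sec16b encodes a protein of endoplasmic reticulum exit sites, and the labels do not describe the allele, the strain background or how many animals stand behind a library. The p-values given here therefore measure only the spread between these samples, which may be technical.

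Complex I is the entry point of electrons from NADH into the respiratory chain of the inner mitochondrial membrane. Its matrix arm carries the flavin and the iron-sulphur clusters that pass electrons to ubiquinone, and its membrane arm pumps protons. Core subunits do the catalysis, accessory subunits surround and stabilise them, and assembly factors help to build the complex without staying in it. In beta cells, oxidation of glucose-derived NADH drives the ATP rise that closes potassium channels and triggers insulin release.

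For no complex I transcript did the difference between knockout and wild type islets pass the test. Values are normalised read counts, that is reads divided by a size factor per library. They were tested with limma, a linear model fitted to log2(value + 1) for every gene, in which 0 of 16042 genes (0%) had an adjusted p below the threshold of 0.05. Before adjustment, limma gave 0 of the 46 members that passed the filter on low values a p below 0.05, and 3.08% of all genes tested. With edgeR 0 genes and with DESeq2 9 genes passed after adjustment, and neither tool gave a complex I gene a p below 0.05 even before it. With limma's array weights 2 subunits had an unadjusted p below 0.05, as did 6.51% of all genes. Of the 36 subunits, 21 had a lower and 15 a higher fitted level in knockout libraries, with a median log2 fold change of −0.07, beside −0.0030 over all genes, of which 50.6% were lower. With libraries scaled to the table total instead, 25 of 36 were lower and the median was −0.14, where all genes had −0.07. Among the subunits described singly, fold changes lay between −0.20 for Ndufa12 and 0.26 for Ndufa3. The 95% interval of the fold change stayed within 1.5-fold in either direction for 34 of 36 subunits, which was the case for 46.3% of all genes tested. The exceptions, Ndufb2 and Ndufa3, had the lowest read counts of the subunits. Subunits had a median normalised read count of 673, not corrected for length, against 402 for all genes, and a median SE of the log2 fold change of 0.11, against 0.20 for all genes.

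**Figure D1:**
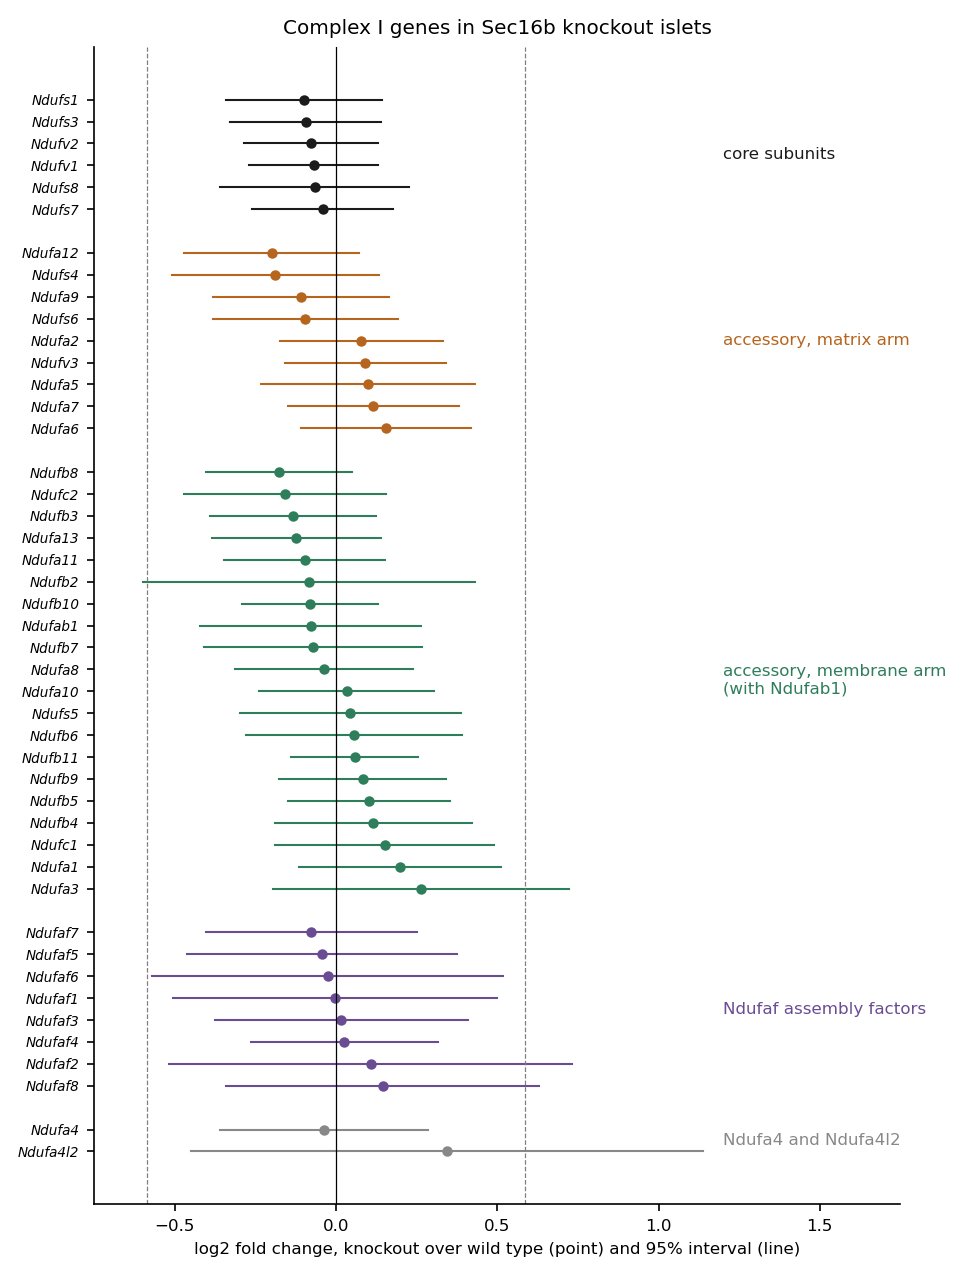
Log2 fold change of each complex I gene in knockout over wild type islets (x axis), with points for the limma estimate and lines for its 95% interval from 3 libraries per genotype. Dashed lines mark 1.5-fold in either direction. The 6 core subunits plotted lie left of 0 and the accessory subunits lie on both sides, with 14 lower and 15 higher.

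The libraries held between 22071895 and 26806787 reads, and each subunit had at least 93 reads in every library. Sec16b itself had normalised read counts of 553, 433 and 750 in knockout libraries, against 1655, 773 and 1786 in wild type libraries. The groups did not overlap but stood close, with 750 below 773, and the transcript was not absent from the knockout. Its log2 fold change was −1.22 (SE 0.35, limma unadjusted p = 0.0108, adjusted p = 0.993). As a check of the tissue, 10 beta cell genes took 9.36% to 14.8% of knockout reads and 11.5% to 15.1% of wild type reads. Acinar cells of the exocrine pancreas were also present, with 15 marker genes at 14.7%, 6.62% and 0.657% of reads in knockout replicates 1, 2 and 3, against 4.88%, 1.02% and 2.97% in wild type replicates 1, 2 and 3. Lymphocyte genes were higher in knockout libraries for 7 of 7 tested (median log2 fold change 2.31), with mean log2 levels of 10.6, 9.25 and 7.79 in knockout libraries, against 10.8, 4.37 and 5.17 in wild type libraries. Endothelial genes were higher for 7 of 8 (median 0.38). Their mean log2 levels were 10.1, 9.82 and 9.69 in knockout libraries, against 9.33, 9.67 and 9.43 in wild type libraries. These means did not overlap but stood close, with 9.69 beside 9.67. Singly, 1 of the 8 genes was separated upward, as were 3.85% of all genes tested. Alpha, delta and PP cell genes were higher for 6 of 7 (median 0.24), and 2 of the 7 were separated upward. Beta cell genes were lower for 9 of 10 (median −0.13), with 0 separated. None of these marker genes passed limma after adjustment, and their part in the complex I values was not tested. In islets taken as bulk tissue, fewer cells of a type and less RNA per cell cannot be told apart.

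The 7 nuclear-encoded core subunits each had a negative fold change, and none passed the threshold. Ndufv1, which binds NADH and the flavin, had normalised read counts of 1501, 1394 and 1402 in knockout libraries, against 1519, 1568 and 1422 in wild type libraries. Ndufv2, its iron-sulphur partner, had 1254, 1209 and 1170 in knockout libraries, against 1296, 1342 and 1198 in wild type libraries. Ndufs1, the largest core subunit of the matrix arm, had 1553, 1400 and 1640 in knockout libraries, against 1735, 1677 and 1503 in wild type libraries. For these 3 genes of the NADH-oxidising end the knockout and wild type libraries overlapped, and their log2 fold changes were −0.07 (SE 0.08), −0.08 (SE 0.09) and −0.10 (SE 0.10).

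Toward the ubiquinone site, Ndufs3, around which the quinone end is first assembled, had normalised read counts of 1018, 929 and 990 in knockout libraries, against 1140, 1031 and 969 in wild type libraries. Ndufs7, which holds the last iron-sulphur cluster before ubiquinone, had 701, 706 and 736 in knockout libraries, against 772, 730 and 703 in wild type libraries. Ndufs8, the ferredoxin-like subunit beside it, had 519, 475 and 511 in knockout libraries, against 596, 482 and 503 in wild type libraries. All 3 overlapped between the genotypes, with log2 fold changes of −0.09 (SE 0.10), −0.04 (SE 0.09) and −0.07 (SE 0.12). In the fit without wild type replicate 1, 6 of the 7 core subunits were lower, and Ndufs8 was at 0.03. In each of the other 16 alternatives all 7 were lower. All these fits draw on the same 6 libraries, so their shared direction is not repeated evidence.

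**Figure D2:**
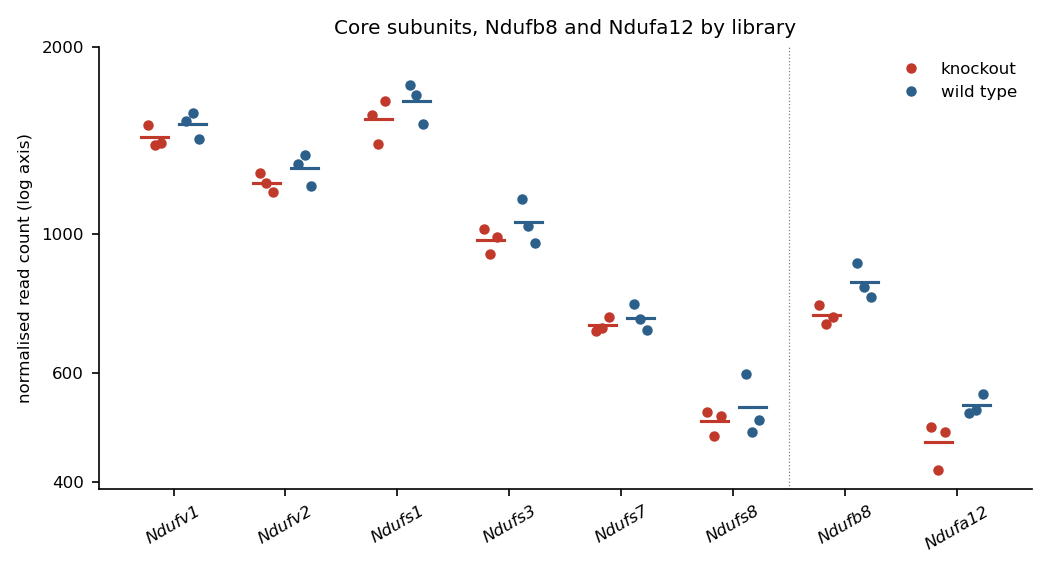
Normalised read counts (log axis) of 6 core subunits and, right of the dotted line, of Ndufb8 and Ndufa12, in 3 knockout (red, left) and 3 wild type (blue, right) libraries each, with a bar at the mean. The genotypes overlap in every core subunit plotted and stand apart in Ndufb8 and Ndufa12.

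The accessory subunits were split in direction, with 14 lower, 15 higher and a median log2 fold change of 0.03. In the matrix arm 4 of 9 were lower (median 0.08), and in the membrane arm 9 of 19 were lower (median 0.03). The knockout and wild type values did not overlap in 2 of the 36 subunits, Ndufb8 and Ndufa12, both lower in knockout libraries. Over all genes tested 9.08% did not overlap in either direction and 5.22% did so with lower knockout values, so the share among subunits was near the background.

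Ndufb8, a membrane arm subunit whose protein is lost when the complex does not assemble, had normalised read counts of 769, 718 and 737 in knockout libraries, against 898, 824 and 793 in wild type libraries. Its means were 741 ± 25.8 in knockout and 838 ± 54.0 in wild type libraries (SD, n = 3 each), a log2 fold change of −0.18 (SE 0.10, limma adjusted p = 0.993). Ndufa12, a matrix arm subunit related in sequence to the assembly factor Ndufaf2, had 491, 419 and 481 in knockout libraries, against 516, 523 and 555 in wild type libraries. Its log2 fold change was −0.20 (SE 0.11, limma adjusted p = 0.993). A processed copy, Ndufa12-ps, left out by the rule, held 14.3% of the summed values of both and may share reads with it. The copy stood at 74.8, 79.6 and 80.7 in knockout libraries, against 85.2, 89.1 and 88.8 in wild type libraries, also without overlap. The sum of both genes ran from 498 to 566 in knockout, against 601 to 644 in wild type libraries. Its separation follows from that of the 2 genes and is no further check.

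Other accessory subunits with the smallest p lay on both sides and overlapped between the genotypes. Ndufs4, a matrix arm subunit whose loss in mice causes a Leigh-like brain disease, had normalised read counts of 445, 434 and 477 in knockout libraries, against 579, 533 and 441 in wild type libraries (log2 fold change −0.19, SE 0.14). Ndufa6, which ties the acyl carrier protein to the matrix arm, had 1180, 1060 and 1187 in knockout libraries, against 1004, 1149 and 929 in wild type libraries (0.16, SE 0.11). Knockout replicates 1 and 3 of Ndufa6 were above every wild type library. Ndufa1, an X-linked membrane arm subunit, had 526, 413 and 501 in knockout libraries, against 397, 426 and 426 in wild type libraries (0.20, SE 0.13). Ndufa3, a small membrane arm subunit, had 175, 151 and 134 in knockout libraries, against 140, 126 and 115 in wild type libraries (0.26, SE 0.19), and only knockout replicate 3 fell below a wild type library. Ndufab1, the mitochondrial acyl carrier protein, which sits in both arms and also serves fatty acid and lipoic acid synthesis, had 665, 560 and 731 in knockout libraries, against 782, 658 and 623 in wild type libraries (−0.08, SE 0.14). Knockout replicate 2 was its lowest library and wild type replicate 1 its highest. The 22 accessory subunits not described so far had log2 fold changes from −0.16 (Ndufc2) to 0.15 (Ndufc1), and none passed limma (adjusted p = 0.993).

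The promoters of 4 subunits are shown because they stand for the pattern above: Ndufb8 and Ndufa12, the subunits whose genotypes did not overlap, Ndufs3 from the core class, whose fold changes were all negative, and Ndufa6 from the accessory subunits on the higher side. The sequences are from RefSeq on GRCm38.p6 and run 5′ to 3′ along the gene, from 250 bases before its start to 50 after. Capitals mark matches, on either strand, to the motifs GCGCA followed by any base and GCGC (Nrf1), CCGGAAG (ETS family, which includes Gabpa), AAGATGG (Yy1), TCAAGGTCA (estrogen-related receptors), GGGCGG (Sp family) and CCAAT (Nfy). Ndufb8 lies at chr19:44555393-44555692 on the minus strand, Ndufa12 at chr10:94198785-94199084 on the plus strand, Ndufs3 at chr2:90904672-90904971 on the minus strand and Ndufa6 at chr15:82354242-82354541 on the minus strand.
Ndufb8: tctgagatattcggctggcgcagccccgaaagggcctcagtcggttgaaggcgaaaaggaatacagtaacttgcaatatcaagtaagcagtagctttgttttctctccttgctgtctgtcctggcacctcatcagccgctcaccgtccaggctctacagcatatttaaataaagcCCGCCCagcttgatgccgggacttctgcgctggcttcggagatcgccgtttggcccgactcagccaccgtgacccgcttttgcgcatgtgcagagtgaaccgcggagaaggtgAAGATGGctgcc
Ndufa12: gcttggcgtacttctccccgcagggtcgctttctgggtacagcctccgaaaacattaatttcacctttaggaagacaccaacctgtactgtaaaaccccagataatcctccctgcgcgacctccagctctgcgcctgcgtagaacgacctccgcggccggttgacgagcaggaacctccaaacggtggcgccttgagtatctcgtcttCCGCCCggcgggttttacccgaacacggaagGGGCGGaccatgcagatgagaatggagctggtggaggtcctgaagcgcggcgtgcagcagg
Ndufs3: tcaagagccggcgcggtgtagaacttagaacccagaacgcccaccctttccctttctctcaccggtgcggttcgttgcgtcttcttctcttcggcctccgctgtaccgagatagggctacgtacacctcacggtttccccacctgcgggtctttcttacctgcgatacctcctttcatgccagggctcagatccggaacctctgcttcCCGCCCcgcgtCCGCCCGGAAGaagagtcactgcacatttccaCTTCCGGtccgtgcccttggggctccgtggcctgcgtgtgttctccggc
Ndufa6: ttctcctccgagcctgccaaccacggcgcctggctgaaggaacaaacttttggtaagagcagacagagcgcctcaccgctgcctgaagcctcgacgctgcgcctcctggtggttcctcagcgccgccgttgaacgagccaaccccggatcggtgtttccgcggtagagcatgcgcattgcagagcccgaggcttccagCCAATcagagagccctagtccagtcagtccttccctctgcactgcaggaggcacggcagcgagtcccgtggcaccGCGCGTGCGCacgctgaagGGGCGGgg
Ndufb8 held a Yy1 match near the end of the window and an Sp match, Ndufa12 held Sp matches only, Ndufs3 held ETS and Sp matches, of which a pair overlap, and Ndufa6 held an Nrf1, an Sp and a CCAAT match.

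RefSeq promoters were matched for 40 of the 48 genes and for 12660 genes of the table. Unmatched members included Ndufs1, Ndufa2, Ndufb9, Ndufaf6, Ndufs6b, Ndufa4l2 and Ndufb4c. The Yy1 motif was found in 8 of the 40 (20%) and in 6.81% of all promoters. In all 8 it lay in the 50 bases after the gene start and on the gene's own strand, an arrangement found in 2.17% of all promoters. Those genes were Ndufa3, Ndufa9, Ndufaf8, Ndufb8, Ndufc1, Ndufs4, Ndufs6 and Ndufs7. The strand and stretch compared are those in which these genes' own matches lay, so the 2.17% is a description and not a test. Whether Yy1 binds at these matches was not tested. The Nrf1 motif was found in 9 of the 40 (22.5%), against 9.04% of all promoters, and its carriers included Ndufa6, Ndufa8, Ndufb4 and Ndufs6. The ETS motif was in 15.0% of the 40 and 16.0% of all promoters, the Sp motif in 52.5% and 60.3%, and CCAAT in 35.0% and 37.9%. The estrogen-related receptor motif was in none of the 40 windows, where 0.253% of all promoters held it. Of the Yy1 carriers 5 were lower and 3 higher in knockout libraries, and of the Nrf1 carriers 4 were lower and 5 higher.

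Many subunits were high or low in the same library. Knockout replicate 2 was the lowest library for 19 of the 36 subunits. In knockout replicates 1, 2 and 3, the number of subunits above their own mean over all 6 libraries was 17, 7 and 22, against 23, 26 and 8 in wild type replicates 1, 2 and 3. The median log2 deviation from that mean was −0.0012, −0.09 and 0.03 in knockout replicates 1, 2 and 3, against 0.05, 0.05 and −0.06 in wild type replicates 1, 2 and 3. Each genotype therefore had a library in which most subunits were low. Without knockout replicate 2 the median log2 fold change of the subunits was 0.01 in place of −0.07, with 17 of 36 lower. Summed subunit reads took 0.106%, 0.115% and 0.135% of knockout reads, against 0.133%, 0.133% and 0.119% of wild type reads. The exact 95% Clopper-Pearson intervals, which cover counting error only, ran from 0.104% to 0.107% for the lowest of these shares and from 0.133% to 0.136% for the highest. With the acinar reads left out of the total the shares were 0.124%, 0.123% and 0.136% in knockout, against 0.140%, 0.134% and 0.123% in wild type libraries. Knockout replicate 2 also had the highest mean log2 level of 7 alpha, delta and PP cell genes, at 12.4, where the other libraries had 11.3 to 12.0, and its part in the low subunit level was not tested. With the acinar level as a covariate the median was −0.05.

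**Figure D3:**
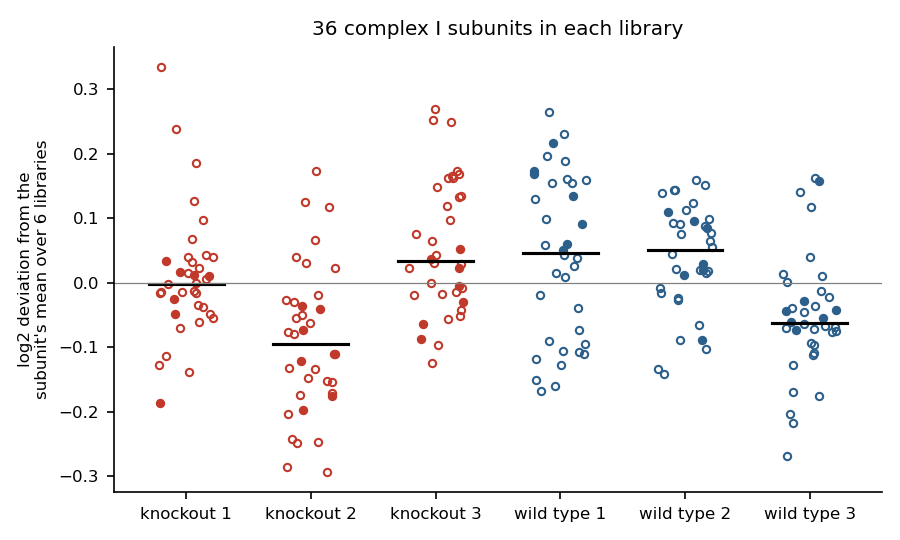
Log2 deviation of each of the 36 subunits from its own mean over 6 libraries (y axis) in knockout (red) and wild type (blue) libraries, with filled points for the 7 core subunits and a bar at the median. Knockout replicate 2 and wild type replicate 3 have the lowest medians, −0.09 and −0.06.

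Core and accessory subunits were also compared within each library, which cancels the scale of the library. On the log2 scale, the mean level of the 7 core subunits exceeded that of the 29 accessory subunits by 1.04, 1.07 and 1.01 in knockout libraries, against 1.2, 1.09 and 1.13 in wild type libraries. The knockout values were all below the wild type values, with knockout replicate 2 and wild type replicate 2 next to each other, and the measure has no test since the members were chosen with results known. Core transcripts are longer, with a median of 1623 bases against 704 for accessory transcripts. Over all genes with an annotated length, those below 771.5 bases, the median length of the subunits, had a median log2 fold change of 0.03 and the longer ones −0.01. The shorter subunits had a median of 0.0020 and the longer ones −0.07. The part of transcript length in the core and accessory difference was not tested.

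Levels per kilobase of transcript differed widely among subunits that the complex holds in equal number, apart from Ndufab1. At the high end, Ndufc2, a membrane arm subunit, averaged 1884 ± 268 normalised reads per kilobase in knockout and 2093 ± 188 in wild type libraries (SD, n = 3 each). Ndufa6 averaged 1937 ± 121 per kilobase in knockout and 1742 ± 190 in wild type libraries, so their order differed between the genotypes. In knockout libraries, however, Ndufa6 was above Ndufc2 by less than the SD of either gene. At the low end, Ndufa3 averaged 298 ± 40.9 per kilobase in knockout and 247 ± 24.5 in wild type libraries. Ndufb2, also of the membrane arm, averaged 269 ± 50.5 and Ndufb4 291 ± 4.85 in knockout libraries, against 284 ± 32.2 and 269 ± 15.8 in wild type libraries, and Ndufs4 averaged 266 ± 13.3 in knockout and 305 ± 41.3 in wild type libraries. In knockout libraries Ndufs4 was below Ndufb4 by more than the SD of either gene. In wild type libraries Ndufs4 was above Ndufb4, but by less than its own SD of 41.3. The lengths are those of GENCODE M21 principal transcripts, which may not be the ends used in islets.

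**Figure D4:**
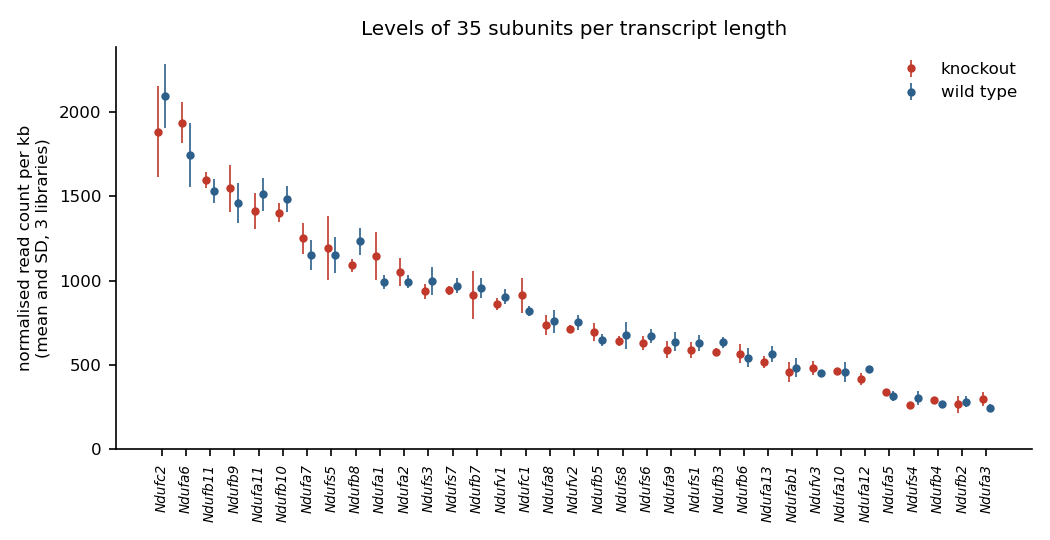
Normalised read count per kilobase of transcript for 35 subunits, ordered by their mean over 6 libraries, with the mean and SD of 3 knockout (red, left) and 3 wild type (blue, right) libraries. Ndufc2 and Ndufa6 lie at the high end and Ndufs4, Ndufb4, Ndufb2 and Ndufa3 at the low end in both genotypes.

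The 8 Ndufaf assembly factors lay evenly about 0, with 4 lower, 4 higher and a median log2 fold change of 0.0074, and none passed limma. Ndufaf8, the partner of the arginine hydroxylase Ndufaf5, had normalised read counts of 227, 187 and 210 in knockout libraries, against 226, 148 and 198 in wild type libraries (log2 fold change 0.14, SE 0.20). Ndufaf7, a mitochondrial arginine methyltransferase, had 422, 443 and 555 in knockout libraries, against 482, 483 and 522 in wild type libraries (−0.08, SE 0.14). Ndufaf2, which occupies the place of Ndufa12 during assembly, had 83.4, 123 and 94.7 in knockout libraries, against 96.2, 111 and 72.1 in wild type libraries (0.11, SE 0.26). None of these 3 separated the genotypes, and the sign of each reversed in at least 1 fit that left out a library. Ndufaf1, Ndufaf3, Ndufaf4, Ndufaf5 and Ndufaf6 had log2 fold changes between −0.04 and 0.03. The factors had a median normalised read count of 192, not corrected for length, and the median within-group SD of their log2 values was 0.22, against 0.11 for the subunits and 0.24 for all genes.

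Assembly factors without an Nduf symbol had mostly negative fold changes, and none passed the threshold. Of 11 tested, 10 had negative fold changes, with a median of −0.07. Foxred1, an oxidoreductase needed to complete the complex, had normalised read counts of 944, 738 and 817 in knockout libraries, against 639, 692 and 660 in wild type libraries. All 3 knockout libraries of Foxred1 were above all 3 wild type libraries (log2 fold change 0.32, SE 0.12, limma unadjusted p = 0.0309, adjusted p = 0.993), where 3.85% of all genes tested were separated upward. Tmem126b, part of the assembly complex of the membrane arm, had 364, 508 and 430 in knockout libraries, against 467, 561 and 491 in wild type libraries (−0.23, SE 0.16), and its genotypes overlapped.

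The remaining Nduf genes are not counted among the subunits. Ndufa4, first assigned to complex I and now placed in complex IV, had normalised read counts of 886, 809 and 999 in knockout libraries, against 1066, 886 and 818 in wild type libraries (log2 fold change −0.04, SE 0.14). Its paralog Ndufa4l2, which hypoxia induces, had 24.5, 15.9 and 24.9 in knockout libraries, against 16.0, 15.5 and 18.5 in wild type libraries, that is 16 to 25 reads per library (0.34, SE 0.33). Knockout replicates 1 and 3 of Ndufa4l2 were above the wild type libraries and knockout replicate 2 among them. Ndufs6b had 7.36, 1.87 and 7.97 in knockout libraries, against 17.0, 8.71 and 7.03 in wild type libraries. Ndufb4c had 12.3, 8.43 and 12.0 in knockout libraries, against 5.01, 7.75 and 9.67 in wild type libraries. Both stayed below the filter, a value of 10 in at least 3 libraries, and were not tested, and reads of their near copies Ndufs6 and Ndufb4 could be shared with them.

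The other respiratory complexes were listed for comparison. The median log2 fold change was −0.04 over 4 complex II genes, −0.03 over 9 complex III genes, 0.01 over 11 complex IV genes and 0.0047 over 18 complex V genes, with 0 genes past the threshold in each. Lower genes numbered 2, 7, 4 and 8 in the same order. Genes without overlap between the genotypes numbered 1 of 4, 0 of 9, 2 of 11 and 1 of 18. Over all genes tested 9.08% did not overlap, 5.22% with lower and 3.85% with higher knockout values. Sdhc, a membrane anchor of complex II, had normalised read counts of 1355, 1180 and 1470 in knockout libraries, against 1482, 1648 and 1580 in wild type libraries (−0.24, SE 0.11), with no overlap. Cox6c and Cox7c, small subunits of complex IV, were separated the other way. Cox6c had 1085, 894 and 958 in knockout libraries, against 825, 796 and 810 in wild type libraries (0.27, SE 0.10, limma unadjusted p = 0.0359, adjusted p = 0.993). Cox7c had 809, 732 and 720 in knockout libraries, against 631, 648 and 669 in wild type libraries (0.21, SE 0.10). Atp5e, the epsilon subunit of ATP synthase, had 963, 856 and 1027 in knockout libraries, against 834, 797 and 812 in wild type libraries (0.22, SE 0.10), again with no overlap. The remaining genes of smallest p were Uqcrc1 (−0.12, SE 0.12) and Uqcrh (0.32, SE 0.14) of complex III, Sdha (−0.10, SE 0.11) of complex II and Atp5md (0.29, SE 0.14) of complex V, and each overlapped.

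**Figure D5:**
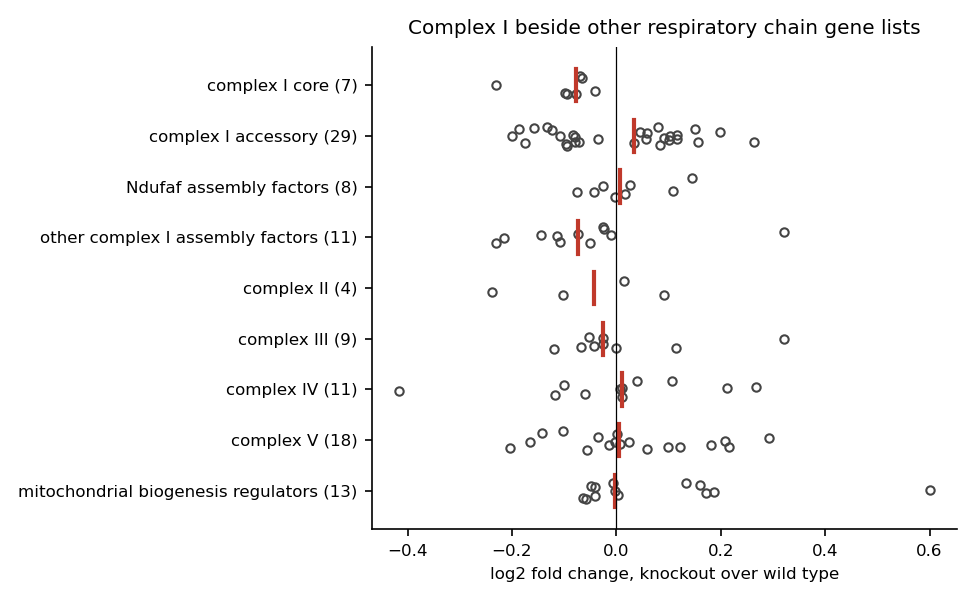
Log2 fold change in knockout over wild type islets (x axis) of each gene tested in 9 gene lists, with the number of genes in brackets and a red bar at the median. The medians lie between −0.08 for the complex I core and 0.03 for the complex I accessory subunits.

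Regulators of mitochondrial biogenesis had a median log2 fold change of −0.0029 over 13 genes, with 7 lower, 6 higher and 0 past the threshold. Ppargc1a, the coactivator that raises expression of respiratory chain genes, had normalised read counts of 245, 290 and 168 in knockout libraries, against 184, 138 and 134 in wild type libraries. Knockout replicates 1 and 2 were above every wild type library and knockout replicate 3 was within the wild type range (0.60, SE 0.25, limma unadjusted p = 0.0503, adjusted p = 0.993). Esrrg, an estrogen-related receptor, had 301, 380 and 360 in knockout libraries, against 252, 341 and 325 in wild type libraries (0.19, SE 0.17), and overlapped.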

How the data were processed

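RNA from isolated islets was sequenced in 6 libraries, 3 per genotype, grouped by title. The submitters' processing notes name HISAT2; aligner version, counter, build and strandedness were not given in the sources used here. Each deposited value is a normalised signal: reads per gene over a size factor of its library, applied by the authors, as 100% of values were whole multiples of a library's step within 0.01 reads. The steps of knockout replicate 3 (0.997) and wild type replicate 1 (1.00) lie so near 1 that their recovery is less certain. The test took genes reaching 10 in 3 or more libraries (16042), as log2(value + 1), which understates changes of low genes, and used limma 3.58.1 in R 4.3.3 (trend, two-sided, Benjamini-Hochberg over all genes, threshold 0.05). EdgeR 4.0.16 and DESeq2 1.42.0 ran on the recovered reads as alternatives. The fits were tested on simulated data. The changes simulated were larger than any fitted for a complex I gene here, so the simulation cannot show whether changes of that size would be found. Members, lists, motifs and the rule for named genes were chosen with earlier results of these data known. The rule took Sec16b, the core subunits, Ndufab1, Ndufa4, Ndufa4l2, the Nduf genes of extreme level, below the filter or without overlap, and those of smallest p in each class or list. Other genes were named after their values were seen. One subunit enters the summaries but is not reported singly here. GENCODE M21 gave names and lengths (the shortest principal transcript), and RefSeq the promoters. Alternatives covered pseudocount, filter, scaling, tool, array weights, replicate block, acinar level and each library left out.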

Additional observations from a re-analysis of the deposited data

How the results depend on the processing

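No complex I gene passed the threshold under any of the 17 alternatives. The median log2 fold change of the subunits was −0.14 when libraries were scaled to the table total, where that of all genes was −0.07. Leaving out 1 library at a time gave −0.078 to 0.013, the highest without knockout replicate 2, and −0.06 to 0.08 for the Ndufaf factors. Subunits without overlap numbered 3 of 36 under each rescaling, beside 9.04% of all genes with TMM scaling and 7.28% with scaling to the table total. They numbered 5 to 11 with a library left out, where fewer libraries make overlap rarer (15.7% to 25.1% of all genes). Of 543 recomputed values of named genes, 534 kept their direction and their side of the threshold. The other 9 reversed with a library left out. Over those fits Ndufs8 ranged from −0.13 to 0.026, Ndufab1 from −0.16 to 0.026 and Ndufa4 from −0.12 to 0.072. Ndufaf7 ranged from −0.20 to 0.0013, Ndufaf2 from −0.064 to 0.25 and Ndufaf8 from −0.025 to 0.28. With a replicate block 0 members passed and the median was −0.07. An unadjusted p below 0.05 was given to 2 subunits with array weights, Ndufa12 among them (limma, 6.51% of all genes), to 1 with the block (5.39%) and to 1 without knockout replicate 3 (7.03%). Same-numbered libraries correlated at 0.430, 0.0037 and 0.365 in their deviations, and differently numbered ones at −0.413 to 0.199. For replicates 1 and 3 the same number gave the highest correlation, and for replicate 2 it did not. Whether the numbers pair the libraries was not settled, and the main fit did not pair them.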
